A study of Mus musculus with 12 samples.

Results

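The genes described here encode the collagen IV and laminin chains of the basement membrane and the proteins that bind and link them. They were chosen by name, as *Col4a1*, *Col4a2*, *Lama1*, *Lamb1*, *Lamc1*, *Sparc*, *Nid1*, *Nid2* and *Hspg2*, with no threshold on measured values, and are 9 of the 23412 genes in the count table. Bulk RNA-Seq was performed on mouse embryonic stem cells (mESCs) of the male line v6.5, grown on gelatin, to ask how loss of the nucleosome-binding proteins HMGN1 and HMGN2 alters expression. There were 3 biological replicates of each of 4 genotypes, 12 libraries in all: unedited cells (WT mESCs), the single knockouts *Hmgn1*-/- and *Hmgn2*-/-, and the line that lacks both genes, *Hmgn1*-/-*Hmgn2*-/-, called the double knockout below. Each knockout line was expanded from a single edited cell, with a homozygous 1 bp deletion in *Hmgn1*, a homozygous 1 bp insertion in *Hmgn2* or both, and the *Hmgn2*-/- line was the parent of the double knockout. With 1 line per genotype, the genotype and the line cannot be told apart, and *p* values measure only the spread between cultures of a line. Cells were collected from culture plates, and poly-A RNA was sequenced.

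The basement membrane is the thin sheet of extracellular matrix that epithelia, including the first epithelia of the embryo, lay down and rest on. Laminin, a trimer of an alpha, a beta and a gamma chain, forms the first network at the cell surface. Collagen IV, a triple helix of alpha chains, forms a crosslinked network beside it, and nidogens and perlecan bind both. In the early mouse embryo laminin-111 (the chains encoded by *Lama1*, *Lamb1* and *Lamc1*) and collagen IV are made in large amounts by the primitive endoderm and its derivative, the parietal endoderm, which builds Reichert's membrane.

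All 9 genes were well counted. Library totals ran from 17337908 to 31448468 counts, and the lowest count of any of these genes in any library was 799, for *Col4a2* in WT mESCs. Levels below are CPM, counts scaled to a common library total with the trimmed mean of M values (TMM), which do not correct for gene length. A difference is a log2 fold change (log2 FC) from edgeR's quasi-likelihood test over all genes tested, with Benjamini-Hochberg adjusted *p* values. A gene is said to have risen or fallen at an adjusted *p* under 0.01, and is called a differentially expressed gene (DEG) if its log2 FC was also at least 1 in size. *Hmgn1* itself had 626 ± 32.8 CPM (SD, n = 3) in WT mESCs, 140 ± 1.72 in *Hmgn1*-/-, 580 ± 52 in *Hmgn2*-/- and 20.9 ± 0.88 in the double knockout. *Hmgn2* had 126 ± 9.2, 109 ± 3.9, 53 ± 2.01 and 52.9 ± 2.02 CPM (SD, n = 3) in the same order. Each edited gene was lower in the libraries whose labels name it than in WT mESCs. Replicate 3 of *Hmgn2*-/- mESCs stood apart from the others. In it the median deviation from the genotype mean was -0.18 (log2) for 1840 genes with 8 kb or more of exon and 0.19 for 1080 genes under 2 kb, and results for *Hmgn2*-/- mESCs were also computed without it.

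*Col4a1* and *Col4a2* lie head to head on chromosome 8. In the GENCODE annotation of GRCm38 (mm10), *Col4a1* spans 11198423 to 11312826 on the minus strand and *Col4a2* spans 11312805 to 11449287 on the plus strand, so that their first exons share 22 bases. This stretch is shown because it holds the start of both genes in that annotation, in opposite directions. The RefSeq span of *Col4a1* reaches further, to 11312889, and start sites were not measured here. The shared stretch is printed on the plus strand of GRCm38.p6 from the RefSeq promoter table (chr8:11312801-11312830). The 22 shared bases are in capitals, with 4 bases on either side.
Col4a1 and Col4a2 shared start: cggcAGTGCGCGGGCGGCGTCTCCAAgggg
A window from 250 bases before to 50 bases after the start site was given in that table for 6 of the 9 genes (*Col4a1*, *Col4a2*, *Lamb1*, *Sparc*, *Nid1* and *Hspg2*). Each window was searched on both strands for short motifs that many promoters carry, namely the GC box with the letters GGGCGG and the CCAAT box, which is searched by its name. Also searched were the TATA box, with the letters TATAAA, and a core that SOX factors are known to bind, which was taken as ACAAT. For the motif bound by GATA factors 4 forms were searched. The first was AGATAA, in which the core stands between adenines on either side. Another had guanine as its last base, spelled AGATAG, and was searched on both strands like the others. The remaining forms had thymine as their first base, and these were spelled TGATAA where they ended in adenine. Where they ended in guanine they were spelled TGATAG instead. The *Col4a2* window held 3 GC boxes and 1 CCAAT box, and the *Col4a1* window, which overlaps it in part, held 1 of each. In both windows 0 bases lay outside annotated exons and the RefSeq span of the gene, and in that of *Sparc* at most 7 in a row did. The *Sparc* window is set on the RefSeq start at 55420080 of chromosome 11, inside the gene as GENCODE annotates it, which starts at 55423183 on the minus strand. *Hspg2* had 5 GC boxes, *Lamb1* 2 and *Nid1* 1, and *Lamb1* and *Nid1* had 1 CCAAT box each. Of 32851 windows of this length in the table, 35.7% held a GC box and 37.4% a CCAAT box. No window of the 6 genes held the letters searched for GATA, SOX or TATA, which occurred in 29.8%, 31% and 13.6% of all windows.

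The sequences just upstream of *Lamb1* and *Nid1* are shown because these genes moved in opposite directions in the double knockout. Only bases before the first annotated exon are printed, which leaves out the GC boxes of *Lamb1*, and CCAAT and GC boxes on either strand are in capitals. They are on the plus strand of GRCm38.p6, 103 bases for *Lamb1* (chr12:31265043-31265145) and 199 bases for *Nid1* (chr13:13437352-13437550).
Lamb1 upstream: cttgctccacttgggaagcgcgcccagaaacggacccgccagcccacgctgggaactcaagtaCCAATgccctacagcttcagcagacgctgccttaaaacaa
Nid1 upstream: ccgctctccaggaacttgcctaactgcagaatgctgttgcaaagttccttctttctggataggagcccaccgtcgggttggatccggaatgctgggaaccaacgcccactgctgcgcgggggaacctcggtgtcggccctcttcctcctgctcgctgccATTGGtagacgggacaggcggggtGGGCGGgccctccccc

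Both genes of the collagen IV pair were higher in every knockout than in WT mESCs, and highest in the double knockout. *Col4a1*, which encodes the alpha 1 chain, had 62, 78.7 and 88.1 CPM in the 3 WT libraries, 157, 123 and 126 in *Hmgn1*-/-, 195, 176 and 123 in *Hmgn2*-/- mESCs, and 392, 379 and 367 in the double knockout. All single knockout libraries were above all WT libraries, and all double knockout libraries were above every other library. In bulk samples more or fewer cells of a type and more or less RNA per cell cannot be told apart, here and in all results that follow. Against WT mESCs the log2 FC of *Col4a1* was 0.83 (SE 0.114, adjusted *p* = 0.000105) in *Hmgn1*-/-, 1.12 (SE 0.164, adjusted *p* = 0.000793) in *Hmgn2*-/- and 2.32 (SE 0.0973, adjusted *p* = 1.92e-09) in the double knockout, a 5-fold rise. The value in *Hmgn2*-/- mESCs was at the edge of the fold limit: it was 0.985 without WT replicate 1 and 0.979 without *Hmgn2*-/- replicate 1.

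*Col4a2*, which encodes the alpha 2 chain that joins the alpha 1 chain in the same triple helix, had 33.7, 45.2 and 54 CPM in WT mESCs, 81.3, 59 and 63.2 in *Hmgn1*-/- mESCs, 104, 89.6 and 66.7 in *Hmgn2*-/- mESCs, and 202, 201 and 179 in the double knockout. As for *Col4a1*, the WT, single knockout and double knockout libraries did not overlap, while the libraries of the 2 single knockouts did. The log2 FC against WT mESCs was 0.62 (SE 0.144, adjusted *p* = 0.00489), 0.99 (SE 0.179, adjusted *p* = 0.00295) and 2.14 (SE 0.123, adjusted *p* = 3.27e-08) in the same order. The rise of *Col4a2* in *Hmgn1*-/- mESCs was lost (adjusted *p* of 0.01 or more) with DESeq2 (0.042), with all 12 libraries in a single fit (0.0134) and without WT replicate 2 (0.0153), *Hmgn1*-/- replicate 1 (0.0395) or *Hmgn1*-/- replicate 3 (0.0137). That in *Hmgn2*-/- mESCs was lost without WT replicate 1 (0.0111), WT replicate 2 (0.0168) or *Hmgn2*-/- replicate 2 (0.0133). The remaining collagen IV chains were at or near the floor. *Col4a3*, *Col4a4*, *Col4a5* and *Col4a6* together had at most 1.28 CPM in any library, and *Col4a5*, their highest chain in WT mESCs, had 0.657 ± 0.335 CPM (SD, n = 3) there.

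Of the laminin-111 chains, *Lama1* rose in all knockouts, while *Lamb1* and *Lamc1* rose in the double knockout. *Lama1*, the alpha chain through which the trimer binds cell surface receptors, had 68.6, 91 and 84.1 CPM in WT mESCs, 202, 179 and 179 in *Hmgn1*-/-, 214, 198 and 145 in *Hmgn2*-/-, and 352, 351 and 306 in the double knockout. Every single knockout library was above every WT library, the single knockouts overlapped each other, and the double knockout was above both. The log2 FC against WT mESCs was 1.21 (SE 0.0883, adjusted *p* = 4.04e-07), 1.2 (SE 0.143, adjusted *p* = 0.000198) and 2.06 (SE 0.0908, adjusted *p* = 2.98e-09).

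*Lamb1*, the beta chain, had 157, 182 and 173 CPM in WT mESCs, 171, 154 and 151 in *Hmgn1*-/-, 180, 168 and 144 in *Hmgn2*-/-, and 261, 257 and 228 in the double knockout. The 3 double knockout libraries stood above the other 9, which overlapped. Its log2 FC was -0.1 (95% interval -0.24 to 0.04) in *Hmgn1*-/- mESCs, -0.04 (-0.25 to 0.16) in *Hmgn2*-/- mESCs and 0.55 (SE 0.0677, adjusted *p* = 4.27e-05) in the double knockout. *Lamc1*, the gamma chain that most laminin trimers share, had 433, 512 and 491 CPM in WT mESCs, 536, 541 and 495 in *Hmgn1*-/-, 599, 560 and 385 in *Hmgn2*-/-, and 684, 677 and 601 in the double knockout. The double knockout was above the WT and *Hmgn1*-/- libraries in every library, while the *Hmgn2*-/- libraries spanned the WT range. Its log2 FC was 0.14 (adjusted *p* = 0.133), 0.11 (adjusted *p* = 0.645) and 0.46 (SE 0.0684, adjusted *p* = 0.000212). With all 12 libraries in a single fit, the adjusted *p* of *Lamc1* in the double knockout was 0.0118, and the rise was lost.

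**Figure D1:**
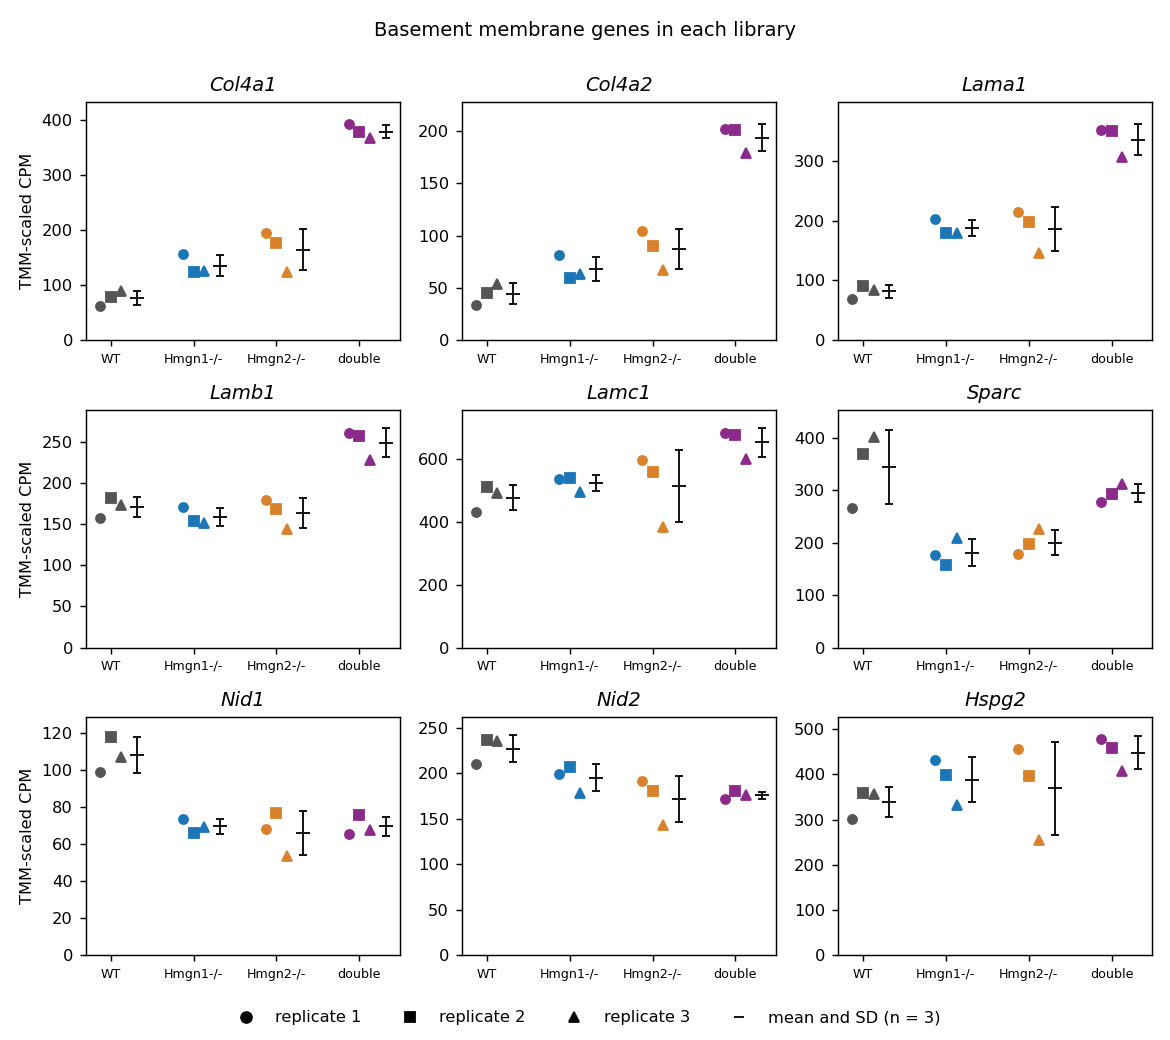
Level of each of the 9 genes in each of the 12 libraries, in CPM on a linear axis that starts at 0, with the mean and SD (n = 3) beside each genotype. The double knockout libraries of *Col4a1* sit at 367 to 392 CPM against 62 to 88.1 in WT mESCs, while those of *Nid1* sit at 65.7 to 75.5 against 98.9 to 118.

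The proteins that link the networks did not move as one group. The nidogens, rod-like glycoproteins that bridge the laminin gamma chain and collagen IV, were lower in the knockouts. *Nid1* had 98.9, 118 and 107 CPM in WT mESCs, 73.6, 65.9 and 69.2 in *Hmgn1*-/-, 68.2, 76.8 and 53.3 in *Hmgn2*-/-, and 65.7, 75.5 and 67.7 in the double knockout. All 9 knockout libraries were below the 3 WT libraries, and the 3 knockouts overlapped each other. The log2 FC of *Nid1* was -0.62 (SE 0.0717, adjusted *p* = 2.39e-05), -0.69 (SE 0.123, adjusted *p* = 0.00271) and -0.63 (SE 0.0759, adjusted *p* = 3.65e-05). The fall in *Hmgn2*-/- mESCs was lost without WT replicate 2 (adjusted *p* = 0.0183) or WT replicate 3 (adjusted *p* = 0.0134).

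*Nid2*, the other nidogen, had 210, 237 and 235 CPM in WT mESCs, 199, 207 and 178 in *Hmgn1*-/-, 191, 180 and 143 in *Hmgn2*-/-, and 172, 180 and 176 in the double knockout. Each knockout library was below each WT library, by a small margin at the closest (207 against 210 CPM). The log2 FC was -0.22 (adjusted *p* = 0.025) in *Hmgn1*-/- mESCs, -0.39 (adjusted *p* = 0.0231) in *Hmgn2*-/- mESCs and -0.37 (SE 0.0585, adjusted *p* = 0.000358) in the double knockout, where it fell. That call was lost with replicate 3 of every genotype left out (adjusted *p* = 0.0114). In *Hmgn1*-/- mESCs *Nid2* passed without the filter on low counts (0.00878) and without WT replicate 1 (0.00161). In *Hmgn2*-/- mESCs it passed with DESeq2 (0.00719), without the filter (0.00935), with all 12 libraries in a single fit (0.00413) and without *Hmgn2*-/- replicate 1 (0.00731). The deposited counts could be affected by overlapping genes, since how the strand was treated is not given in the sources used here. *Nid2* shares 437 bases of exon with *Rtraf* on the other strand, *Nid1* shares 143 with the antisense gene *Gm48682*, and *Col4a2* shares 43 with the antisense gene *Gm15419*.

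*Hspg2*, which encodes the heparan sulfate proteoglycan perlecan, had 301, 359 and 357 CPM in WT mESCs, 432, 398 and 333 in *Hmgn1*-/-, 457, 396 and 255 in *Hmgn2*-/-, and 479, 459 and 407 in the double knockout. The 3 *Hmgn2*-/- libraries spread widely around the WT range, and the double knockout was above every WT library. Its log2 FC was 0.2 (adjusted *p* = 0.109), 0.13 (adjusted *p* = 0.658) and 0.41 (SE 0.0752, adjusted *p* = 0.00105). The rise in the double knockout was lost with all 12 libraries in a single fit (0.4, adjusted *p* = 0.0714).

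*Sparc*, a secreted calcium-binding protein that binds collagen IV, had a pattern of its own. It had 266, 369 and 401 CPM in WT mESCs, 177, 158 and 209 in *Hmgn1*-/-, 178, 198 and 226 in *Hmgn2*-/-, and 277, 293 and 313 in the double knockout. Both single knockouts were below every WT library, and the double knockout was above both and within the WT range. *Sparc* fell in *Hmgn1*-/- mESCs, with a log2 FC of -0.92 (SE 0.125, adjusted *p* = 9.29e-05), and in *Hmgn2*-/- mESCs, with -0.77 (SE 0.14, adjusted *p* = 0.00294). In the double knockout its log2 FC was -0.22 (95% interval -0.46 to 0.01, adjusted *p* = 0.15), and it was -0.39 (adjusted *p* = 7.8e-05) without WT replicate 1. The fall in *Hmgn2*-/- mESCs was lost without WT replicate 2 (adjusted *p* = 0.0178), WT replicate 3 (0.0172) or *Hmgn2*-/- replicate 2 (0.0164). In *Hmgn1*-/- mESCs the fall was within the fold limit, and it went past it without WT replicate 1 or without *Hmgn1*-/- replicate 3, at most to -1.09.

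**Figure D2:**
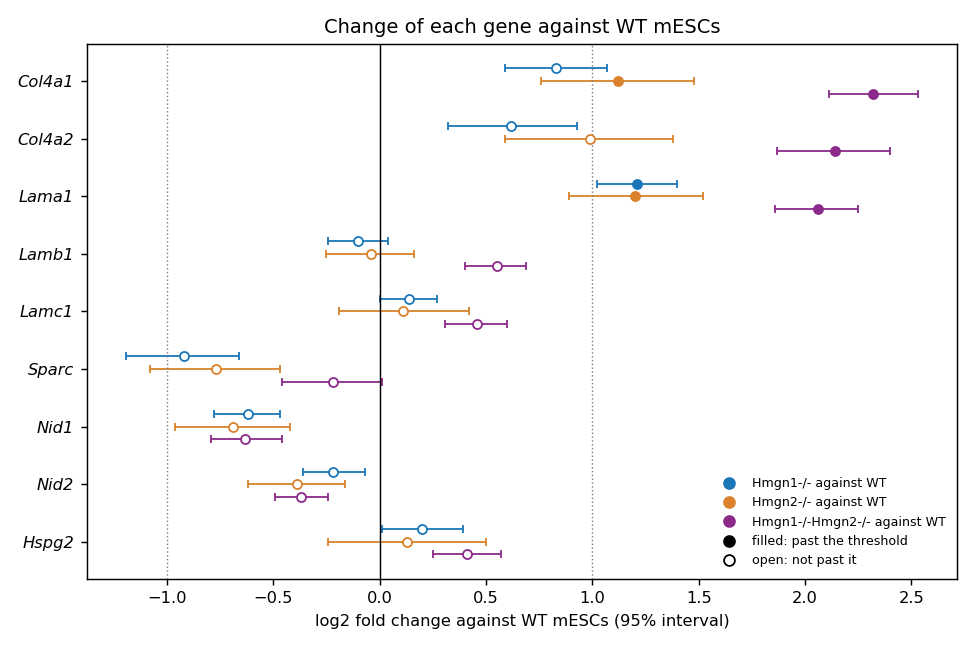
Log2 fold change of each gene against WT mESCs in the 3 knockouts, with 95% intervals from edgeR (n = 3 libraries a genotype); filled points passed both the adjusted *p* and the fold limit, and dotted lines mark a log2 fold change of 1 in either direction. *Col4a1*, *Col4a2* and *Lama1* lie at 2.06 to 2.32 in the double knockout, and *Sparc*, *Nid1* and *Nid2* lie below 0 in all 3 comparisons.

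The counts of changed genes are given beside those of all genes tested. In *Hmgn1*-/- mESCs 1 of the 9 genes was a DEG with a rise (*Lama1*), where 0.898% of 13917 genes were. In *Hmgn2*-/- mESCs 2 were (*Col4a1* and *Lama1*), where 0.776% of 14047 genes were. In the double knockout 3 were (*Col4a1*, *Col4a2* and *Lama1*), where 1.3% of 14128 genes were. None of the 9 was a DEG with a fall in edgeR or DESeq2, although the background of falls was larger, at 5.08%, 4.38% and 5% of genes. At an unadjusted *p* under 0.05, 3, 3 and 2 of the 9 were lower, where 19.8%, 16.6% and 20.1% of all genes were. Without the fold limit, 3 genes rose and 2 fell in *Hmgn1*-/- mESCs, where 7.28% of all genes tested rose and 10.1% fell. In *Hmgn2*-/- mESCs 3 rose and 2 fell, where 3.3% rose and 6.66% fell. In the double knockout 6 rose and 2 fell, where 7.79% rose and 10.2% fell. The libraries of 6, 6 and 8 of the 9 genes did not overlap those of WT mESCs, and this was so for 42%, 35.8% and 42.4% of all genes tested. The median log2 FC of the 9 genes was 0.14, 0.11 and 0.46, and that of all genes was 0.00401, 0.0133 and 0.0037. These 3 comparisons share the WT libraries.

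The double knockout was then compared with each single knockout. Against *Hmgn1*-/- mESCs, *Col4a1* was higher by 1.49 (log2 FC, SE 0.0787, adjusted *p* = 3.72e-08) and *Col4a2* by 1.51 (SE 0.0955, adjusted *p* = 1.69e-07), and both were DEGs. *Lama1* rose by 0.85 (adjusted *p* = 1.42e-06), *Sparc* by 0.7 (adjusted *p* = 0.000107), *Lamb1* by 0.65 (adjusted *p* = 2.03e-05) and *Lamc1* by 0.32 (adjusted *p* = 0.00807). The rise of *Lamc1* was lost with all 12 libraries in a single fit (adjusted *p* = 0.434), without any 1 of the *Hmgn1*-/- libraries (0.0198 to 0.0303) and without double knockout replicate 1 (0.0224) or 2 (0.0817). *Nid1* had a log2 FC of 0 with a 95% interval of -0.15 to 0.15. The 2 DEGs with a rise compare with 0.35% of 13710 genes, the 6 that rose without the fold limit with 0.664%, and the 6 whose libraries did not overlap with 15%.

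Against *Hmgn2*-/- mESCs, the line the double knockout was made from, the same 6 genes had the highest log2 FC values among the 9, but none was a DEG with edgeR (0.0362% of 13816 genes were DEGs with a rise). *Col4a1* was higher by 1.2 (SE 0.141, adjusted *p* = 0.0156) and *Col4a2* by 1.15 (SE 0.139, adjusted *p* = 0.0156), and their libraries did not overlap. *Lama1* had a log2 FC of 0.86 (adjusted *p* = 0.0435), *Lamb1* of 0.6 (adjusted *p* = 0.0435) and *Sparc* of 0.56 (adjusted *p* = 0.056). Each of these passed the adjusted *p* limit under some alternatives. The adjusted *p* ran from 3.48e-07 (DESeq2) to 0.298 for *Lama1*. With a replicate block as the lowest, it ran from 1.17e-05 to 0.313 for *Lamb1* and from 2.5e-05 to 0.369 for *Sparc*. At an unadjusted *p* under 0.05, 6 of the 9 genes were higher, against 2.76% of all genes, and 6 had libraries that did not overlap, against 10.2%. *Col4a1* and *Col4a2* were both DEGs with DESeq2, without the filter on low counts and with all 12 libraries in a single fit. They were also DEGs without *Hmgn2*-/- replicate 1, with replicate 3 of every genotype left out and with a replicate block. Replicate numbers did not meet the rule set for pairing, although same-numbered libraries had positively correlated deviations, as given in the closing section. *Col4a1* alone was a DEG without *Hmgn2*-/- replicate 3. Over all alternatives the log2 FC of *Col4a1* stayed between 1.03 and 1.34, with adjusted *p* values from 1.75e-13 to 0.17, and that of *Col4a2* between 1 and 1.31, with adjusted *p* values from 1.39e-12 to 0.17.

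No difference between the 2 single knockouts passed the test at any of the 9 genes. None was a DEG with edgeR or DESeq2 in *Hmgn2*-/- against *Hmgn1*-/- mESCs, where 0.176% of 13648 genes were DEGs in either direction, and none passed without the fold limit, where 0.352% did. None had libraries that did not overlap, against 8.07% of all genes. 1 gene, *Col4a2*, had an unadjusted *p* under 0.05, as 3.2% of all genes did in either direction, with a log2 FC of 0.36 (95% interval 0.01 to 0.71, adjusted *p* = 1). The intervals were wide enough to hold a moderate difference: that of *Lamc1* ran from -0.33 to 0.28 and that of *Hspg2* from -0.46 to 0.32.

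Whether lines with and without the *Hmgn1* edit differed alike in both backgrounds was tested as a departure from additivity on the log2 scale. The fit held all 12 libraries. The edit was made separately in each background, and the edit and the line cannot be told apart. *Hmgn1* RNA was at 140 ± 1.72 CPM (SD, n = 3) in *Hmgn1*-/- mESCs and 20.9 ± 0.88 in the double knockout. The departure is the difference between double knockout and *Hmgn2*-/- mESCs minus that between *Hmgn1*-/- and WT mESCs. For *Sparc* it was 1.49 (SE 0.187, adjusted *p* = 1e-04): log2 ratios of the mean CPM were -0.93 for *Hmgn1*-/- over WT mESCs and 0.55 for the double knockout over *Hmgn2*-/- mESCs. *Lamb1* departed by 0.7 (SE 0.122, adjusted *p* = 0.00134), with log2 ratios of -0.11 and 0.6, and *Nid1* by 0.7 (SE 0.154, adjusted *p* = 0.00669), with -0.63 and 0.07. The value of *Nid1* ran from 0.57 to 0.82 over the alternatives, with adjusted *p* values from 0.00054 to 0.0251, and it missed the limit without WT replicate 2 or 3, without any 1 of the *Hmgn1*-/- libraries, without double knockout replicate 2 or 3 and with replicate 3 of every genotype left out. These 3 of the 9 passed without the fold limit, all upward, where 4.13% of 14323 genes did, and *Sparc* alone passed with it, where 2.98% did. *Col4a1* (0.38, 95% interval -0.06 to 0.82), *Lamc1* (0.21, -0.15 to 0.58), *Nid2* (0.25, -0.02 to 0.53) and *Hspg2* (0.08, -0.38 to 0.55) had intervals that held 0. The value of *Lama1* was below 0, at -0.35, with an interval that also held 0 (-0.72 to 0.03). That of *Col4a2* was 0.53, with an interval of 0.04 to 1.03 and an adjusted *p* of 0.161.

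Levels can be compared between genes only per length. Divided by the length of all annotated exons, *Sparc* was the highest of the 9 in WT mESCs, with 91.2 ± 18.6 CPM per kb (SD, n = 3), followed by *Lamc1* with 57.8 ± 4.93 and *Nid2* with 43.9 ± 2.89. *Hspg2* had 23.7 ± 2.33, *Lamb1* 17.2 ± 1.26 and *Nid1* 15.5 ± 1.38 CPM per kb, and the last of these pairs did not differ beyond its spread. *Col4a1* (10.2 ± 1.77), *Lama1* (8.39 ± 1.18) and *Col4a2* (6.69 ± 1.53) were the lowest, and neighbours among them overlapped within their SDs. In the double knockout the order of the lower genes had changed. *Lamc1* had 79.1 ± 5.54 CPM per kb and *Sparc* 77.8 ± 4.7, *Col4a1* ranked 3 with 50.8 ± 1.67, *Lama1* had 34.7 ± 2.69, which did not differ from *Nid2* (34 ± 0.742) or *Hspg2* (31.3 ± 2.59) beyond its spread, and *Nid1* was the lowest with 10 ± 0.751. *Lamc1* and *Sparc* did not differ beyond their spread either. Several places depend on the transcript model. The exons of *Lamb1* add up to 9917 bases over all transcripts and 5557 in the principal one. Per kb of principal transcript it had 30.7 ± 2.24 in WT mESCs, which put it at rank 4, and 44.7 ± 3.21 in the double knockout, above *Nid2* (36 ± 0.787) and *Lama1* (35.3 ± 2.73). On that length *Sparc* had 128 ± 7.74 in the double knockout and *Lamc1* 85.8 ± 6.02.

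Ratios between genes in the same library do not depend on how libraries are scaled. The ratio of *Col4a1* to *Col4a2* per kb was 1.54 ± 0.0914 (SD, n = 3) in WT mESCs, 1.77 ± 0.0674 in *Hmgn1*-/-, 1.68 ± 0.0546 in *Hmgn2*-/- and 1.74 ± 0.0697 in the double knockout, or 1.15, 1.09 and 1.13 times the WT ratio, while *Col4a1* itself was 5-fold higher in the double knockout. The ratio between the laminin alpha and gamma chains moved further. *Lama1* to *Lamc1* was 0.145 ± 0.00844 in WT mESCs, 0.305 ± 0.02 and 0.31 ± 0.0103 in the single knockouts, and 0.439 ± 0.00367 in the double knockout. *Lamb1* to *Lamc1* moved less, from 0.298 ± 0.00454 in WT mESCs to 0.253 ± 0.0138, 0.271 ± 0.0359 and 0.317 ± 0.000924.

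*Col4a1* to *Lamc1* sets the RNA of a collagen IV chain against that of a laminin chain, and does not measure the networks. This ratio went from 0.176 ± 0.0207 in WT mESCs to 0.285 ± 0.0364, 0.354 ± 0.00672 and 0.644 ± 0.0284. *Nid1* to *Nid2* was 0.353 ± 0.0163 in WT mESCs and 0.267 ± 0.027, 0.287 ± 0.0274 and 0.295 ± 0.0159 in the knockouts. *Sparc* to *Col4a1* went from 8.89 ± 0.394 to 2.68 ± 0.54, 2.54 ± 0.949 and 1.53 ± 0.143, with no overlap between WT and knockout libraries. With 3 libraries against 3, a two-sided exact permutation test cannot go below *p* = 0.1, and the 42 tests of 7 ratios had adjusted *p* values of 0.135 or more, so none of these differences passes such a test. The absolute values carry the same dependence on gene length as the levels per kb, while the folds between genotypes do not.

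**Figure D3:**
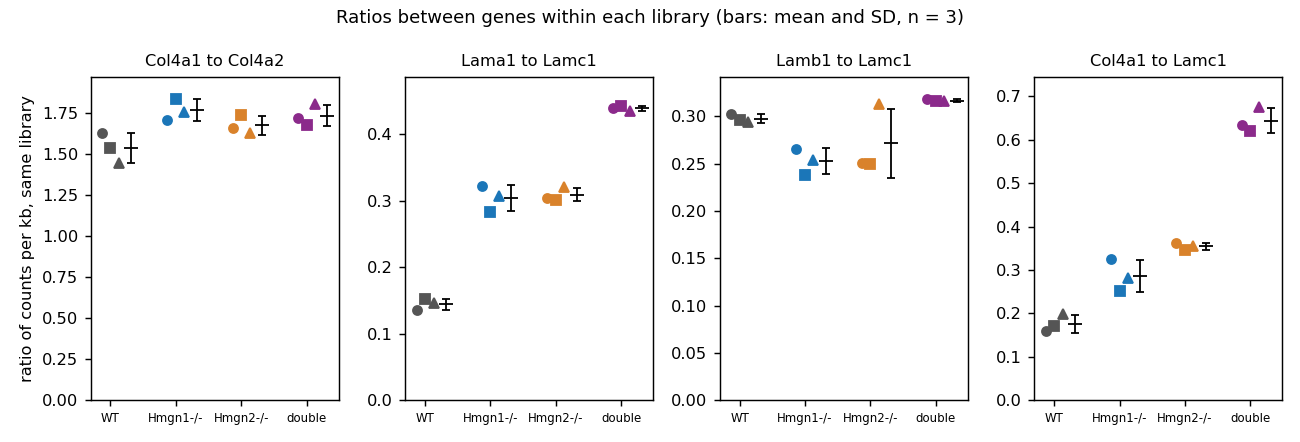
Ratio of length-scaled counts between 2 genes in the same library, by genotype, on linear axes that start at 0, with the mean and SD (n = 3). *Col4a1* to *Col4a2* stays between 1.45 and 1.84 in all 12 libraries, and *Lama1* to *Lamc1* goes from 0.135 to 0.152 in WT mESCs to 0.435 to 0.443 in the double knockout.

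Of 8 other laminin chains in the table, 6 were tested, and all of these but *Lamb2* had a log2 FC below 0 in every knockout. At an adjusted *p* under 0.01, 5, 3 and 5 of the 6 fell in *Hmgn1*-/-, *Hmgn2*-/- and double knockout mESCs, where 10.1%, 6.66% and 10.2% of all genes fell. Of the 6, 3, 2 and 4 were DEGs with a fall. *Lama3*, the alpha chain of the laminin-332 of stratified epithelia, went from 24.2 ± 7.26 CPM (SD, n = 3) in WT mESCs to 4.81 ± 1, 4.03 ± 0.364 and 5.02 ± 0.286, a log2 FC of -2.32, -2.56 and -2.26. *Lamb3*, a beta chain that joins it, had a log2 FC of -1.49 (adjusted *p* = 0.000901) in the double knockout. *Lama5*, the alpha chain of laminin-511, had 348 ± 16.9 CPM in WT mESCs and 234 ± 28.5 in the double knockout, where it fell by 0.57 on the log2 scale (adjusted *p* = 9.47e-05). *Lamb2* rose there by 0.45 (adjusted *p* = 0.00056) and in *Hmgn1*-/- mESCs by 0.47 (adjusted *p* = 0.00124). The median log2 FC of the 6 chains was -1.22, -1.13 and -1.26, and 5.08%, 4.38% and 5% of all genes were DEGs with a fall.

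Among 21 other basement membrane components, 13, 13 and 15 were tested, and 5, 4 and 4 were DEGs with a fall, against 5.08%, 4.38% and 5% of all genes, with medians of -0.44, -0.74 and -0.41. They included *Col7a1* of the anchoring fibrils (-1.68, -1.36 and -1.41), the Fraser complex gene *Fras1* (-1.96, -1.68 and -1.6) and *Efemp1*, a fibulin (-3.89, -3.09 and -2.89). The single DEG with a rise was *Egflam* (pikachurin), with 2.05 (adjusted *p* = 0.00106) in the double knockout, where 1.3% of all genes were such DEGs, at a low level of 1.08 ± 0.202 CPM (SD, n = 3). *Agrn*, the heparan sulfate proteoglycan agrin, had 280 ± 20.2 CPM in WT mESCs and 317 ± 19.5 in the double knockout, and *Fn1* (fibronectin) had 380 ± 21.8 and 439 ± 53.5. *Fn1* was at 570 ± 105 CPM in *Hmgn1*-/- mESCs, where it rose by 0.59 (adjusted *p* = 0.000607), and at 457 ± 120 in *Hmgn2*-/- mESCs.

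Of 17 receptors tested, 2, 4 and 2 were DEGs with a fall, against 5.08%, 4.38% and 5% of all genes, with medians of -0.35, -0.37 and -0.27. The collagen receptor *Ddr1* fell in all knockouts (-1.03, -1.13 and -1.16), from 99.2 ± 7.69 CPM (SD, n = 3) in WT mESCs to 44.2 ± 4.33 in the double knockout. Dystroglycan (*Dag1*), a laminin receptor, was at 213 ± 16.2 CPM in WT and 201 ± 6.09 in *Hmgn1*-/- mESCs, and at 102 ± 19.3 and 108 ± 6.36 in the 2 genotypes that lack HMGN2. *Itgb1*, the integrin beta chain shared by most laminin and collagen receptors, was at 283 ± 19.4 CPM in WT mESCs and 335 ± 8.63 in the double knockout.

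Of a list of genes linked to collagen synthesis, which holds modifying enzymes and chaperones but also export receptors (*Mia3* and *Ctage5*), the ion channel gene *Tmem38b* and the ceramide transfer gene *Col4a3bp*, 20 were tested. In *Hmgn1*-/- and *Hmgn2*-/- mESCs none rose and 4 and 2 fell, with medians of -0.05 and -0.03, where 10.1% and 6.66% of all genes fell. In the double knockout 4 rose and 3 fell, with a median of 0.04, where 7.79% of all genes rose and 10.2% fell. 1 of the 20 was a DEG there, with a rise, where 1.3% of all genes were DEGs with a rise and 5% with a fall. It was *P4ha2*, a subunit of collagen prolyl 4-hydroxylase, with 8.55 ± 1.28 CPM (SD, n = 3) in WT mESCs and 21.5 ± 0.656 in the double knockout (log2 FC 1.33, adjusted *p* = 1.92e-06). *Serpinh1*, the collagen chaperone HSP47, had 105 ± 8.02 and 176 ± 2.58 CPM (0.75, adjusted *p* = 1.25e-06), *P4ha1* had a log2 FC of 0.48 (adjusted *p* = 0.00366) and *Plod2*, a lysyl hydroxylase, of 0.31 (adjusted *p* = 0.00597). The 3 that fell were *Plod1*, another lysyl hydroxylase (-0.52), *Pxdn*, the peroxidase that crosslinks collagen IV (-0.57), and *Loxl2*, a lysyl oxidase (-0.9). *Loxl2* was a DEG with a fall in *Hmgn1*-/- mESCs (-1.27, adjusted *p* = 0.000227), where 5.08% of all genes were. Of 19 genes of matrix remodelling, 5, 4 and 4 were DEGs with a fall, against 5.08%, 4.38% and 5% of all genes, with medians of -0.51, -0.25 and -0.23. Without the fold limit, 3, 1 and 5 rose and 9, 4 and 6 fell. Of all genes, 7.28%, 3.3% and 7.79% rose and 10.1%, 6.66% and 10.2% fell. The protease inhibitor *Timp3* (-2.42, -2.31 and -2.14) fell in all 3 knockouts. *Plat*, tissue plasminogen activator, was a DEG with a rise in the double knockout (1.29, adjusted *p* = 0.00122), as 1.3% of all genes were. It was at a low level of 2.62 ± 0.474 CPM there.

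The cells carried high levels of pluripotency transcripts in every genotype. The 8 pluripotency markers, among them *Pou5f1*, *Sox2* and *Nanog*, summed to 4750 to 5780 CPM in the 12 libraries. Most of the WT sum came from *Pou5f1* (1980 ± 89.5 CPM, SD, n = 3) and *Dppa5a* (1460 ± 32.1). Against WT mESCs 2, 1 and 2 of the 8 rose and 1 fell in each comparison, all within the fold limit. Of all genes, 7.28%, 3.3% and 7.79% rose and 10.1%, 6.66% and 10.2% fell. The marker that fell was *Nanog* (-0.32, -0.5 and -0.45). *Klf4* rose in each knockout (0.93, 0.69 and 0.74), and *Esrrb* in *Hmgn1*-/- (0.47) and the double knockout (0.28). Markers of primitive endoderm were higher in the knockouts, as *Col4a1*, *Col4a2* and *Lama1* were. Of 8 such markers, 6, 6 and 8 were DEGs with a rise (median log2 FC 2.65, 2.95 and 4.19), where 0.898%, 0.776% and 1.3% of all genes tested were. Their summed level was 11.5 to 13.9 CPM in WT libraries, 64 to 78.2 in *Hmgn1*-/-, 65.5 to 96.2 in *Hmgn2*-/- and 181 to 194 in the double knockout. None of the 8 was at 0. *Gata6*, for example, had 1.67 ± 0.335 CPM (SD, n = 3) in WT mESCs, 8.81 ± 1.51 and 11.3 ± 2.92 in the single knockouts and 25.1 ± 2.5 in the double knockout. Means of *Col4a1*, *Col4a2*, *Lama1*, *Lamc1* and *Hspg2* were likewise lowest in WT mESCs and highest in the double knockout, and those of *Sparc*, the nidogens and *Lamb1* were not. The part of these markers in the result was not tested.

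Visceral endoderm markers were split. *Cubn* (2.83 ± 0.661 CPM in WT mESCs and 114 ± 5.82 in the double knockout, SD, n = 3) and *Amn* rose in all knockouts, *Hnf4a* was a DEG with a rise in the double knockout at 1.53 ± 0.226 CPM, *Ttr* was at 0 in all libraries and *Afp* had at most 3 counts over the 3 libraries of any genotype. In sum the 8 markers had 7.12 to 8.6 CPM in WT mESCs and 126 to 137 in the double knockout, most of it from *Cubn*. Of the 8 parietal endoderm markers 6 were tested. *Pth1r* rose in all knockouts (1.49, 1.54 and 2.83), *Plat* in the double knockout, and *Krt19* and *Fst* fell in all. Their summed level was 156 to 180 CPM in WT mESCs, 96.5 to 103 and 119 to 123 in the single knockouts and 134 to 142 in the double knockout. Most of it came from *Vim*, the intermediate filament gene vimentin, with 138 ± 9.63, 85 ± 3.94, 102 ± 0.594 and 108 ± 3.33 CPM (SD, n = 3), which fell in all knockouts (-0.69, -0.43 and -0.35).

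Summed markers of other cells that make or adjoin basement membrane were lower in the knockouts, with a few genes making up most of each sum. The 10 fibroblast markers summed to 18.3 to 22.8 CPM in WT mESCs and 5.92 to 8.99 in the knockout libraries. 1 of them was at 0 in all WT libraries and 2 or 3 in all libraries of each knockout, *Thy1* made up most of the WT sum (11.5 CPM), and *Col1a1* and *Col1a2* were DEGs with a fall throughout. The 6 endothelial markers summed to 80.9 to 86.1 CPM in WT mESCs and 43.7 to 55.8 in the knockout libraries, none being at 0 in all libraries of a genotype, and *Cdh5* alone among them was a DEG with a rise (2.97 in the double knockout, adjusted *p* = 0.00105). *Pecam1*, which mESCs also express, made up most of that sum, with 65.6 ± 2.77 CPM (SD, n = 3) in WT mESCs and 38.5 ± 2.48 in the double knockout. The 4 muscle markers summed to 27.6 to 34.4 CPM in WT and 21.7 to 26.9 in knockout libraries, and the 3 macrophage markers in the table to 20 to 31.5 and 5.86 to 10.9, nearly all from *Cd68*. The muscle sum was lower through *Acta2*, with 10.3 ± 1.85 CPM in WT mESCs and 0.357 ± 0.269 in the double knockout, whereas *Des* had 20.3 ± 2.08, 21 ± 0.588, 21.5 ± 0.835 and 25.1 ± 1.17 CPM (log2 FC 0.3, adjusted *p* = 0.026, in the double knockout). These summed levels were lower in the knockouts, as *Nid1* was in all of them and *Sparc* in the single knockouts, while *Col4a1*, *Col4a2* and *Lama1* were higher. Their part in the result was not tested.

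The genes whose pattern over the 12 libraries was most like the mean of the 9 were found by Pearson's *r* of log2 CPM, among 12548 other genes with a mean of at least 1 CPM. The 10 closest were *Nfxl1* (*r* = 0.953), *Sox7* (0.952), *F2r* (0.925), *Itpripl2* (0.921), *Elovl6* (0.917), *Runx1* (0.913), *Foxa2* (0.903), *Nrg2* (0.902), *Gdpd5* (0.901) and *Xylt1* (0.898). The 12 points share their libraries, and 9 of them are knockouts, so these values are a description. The mean is not the pattern of each of the 9 genes. Over the 12 libraries *Col4a1* had an *r* of 0.96 with *Lama1*, -0.04 with *Sparc* and -0.55 with *Nid1*. *Sox7* and *Foxa2*, transcription factors of endoderm, also stand in the primitive endoderm list above. *Sox7* had a mean of 3.07 CPM in WT mESCs, 4.59 and 5.06 in the single knockouts and 11.2 in the double knockout. *Nfxl1*, at the top, moved over a narrow range, from 24 CPM in WT mESCs to 30 in the double knockout.

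Within a genotype the replicates differed in the same direction for most of the 9 genes. WT replicate 1 was the lowest of its group for 9 of 9 genes, and *Hmgn2*-/- replicate 3 for 8 of 9, with *Sparc* the exception, where it was the highest. The mean deviation of the 9 genes from the genotype mean was -0.21 (log2) in WT replicate 1 and -0.28 in *Hmgn2*-/- replicate 3, and between -0.07 and 0.18 in the other 10 libraries. In *Hmgn2*-/- replicate 3 long genes as a class were low, as given above, and 4 of the 9 genes are in that class. In WT replicate 1 the median deviation of long genes was -0.02. Leaving out replicate 3 of every genotype was a setting added after *Hmgn2*-/- replicate 3 was seen to stand apart. There 3 of the 9 genes were DEGs in *Hmgn2*-/- against WT mESCs (2 with all libraries, *Col4a2* being the one added). In the double knockout against *Hmgn2*-/- mESCs 2 were DEGs, and the numbers in the other comparisons were as with all libraries. The shares of all genes called under this setting are not given here. Whether the 9 genes gained calls beyond all genes was not tested.

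**Figure D4:**
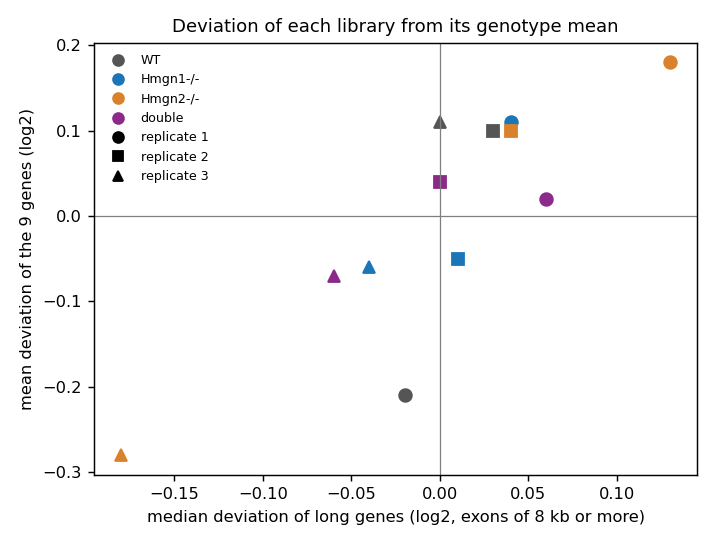
Mean deviation (log2) of the 9 genes from the genotype mean in each library, against the median deviation of genes with 8 kb or more of exon. *Hmgn2*-/- replicate 3 lies at -0.18 and -0.28, and WT replicate 1 lies at -0.02 and -0.21.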

How the data were processed

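RNA of 12 libraries (4 genotypes, 3 biological replicates each) was measured by bulk RNA-Seq with poly-A enrichment. The authors aligned paired-end reads to mm10 with STAR and deposited counts, whole numbers of reads per gene without normalization. The counting program, its annotation and its use of strand are not given in the sources used here. Genotypes were taken from the sample labels.

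Comparisons used edgeR 4.0.16 in R 4.3.3, with TMM scaling, filterByExpr at its defaults and quasi-likelihood tests on the 6 libraries concerned (all 12 for additivity), and Benjamini-Hochberg adjustment over all genes tested. DEGs had an adjusted *p* under 0.01 and a log2 FC of at least 1 in size. Alternatives were DESeq2 1.42.0, RLE scaling, no filter, no fold limit, a single fit of all 12 libraries, a replicate block, and omission of every library one at a time. Replicate 3 of every genotype was left out as a further alternative, added after the data were seen. Exon lengths came from GENCODE vM21 and promoter windows from RefSeq (GRCm38.p6). The 9 genes and the other gene lists were chosen by name with earlier results of these data known, although no measured value entered the rule for the 9. All 9 genes are named, with genes of the lists that were DEGs or have a defining role, and the 10 genes most like the 9. Total counts of 17337908 to 31448468 per library put at least 799 counts behind each level of the 9 genes.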

Additional observations from a re-analysis of the deposited data

Results flagged for a closer look

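*Sparc* met the rule for a difference between backgrounds: the log2 difference between libraries with and without the *Hmgn1* edit was 1.49 higher in the *Hmgn2*-/- background than in the WT background (edgeR, adjusted *p* = 1e-04, SE 0.187). Mean *Sparc* levels were 345 ± 70.5 CPM (SD, n = 3) in WT mESCs, 181 ± 25.8 in *Hmgn1*-/-, 200 ± 23.8 in *Hmgn2*-/- and 295 ± 17.8 in the double knockout. When single libraries were omitted the value stayed between 1.36 and 1.64. Each genotype is 1 line, so the edit and the line cannot be told apart.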

How the results depend on the processing

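Of 801 log2 FC values of the 9 genes under alternatives, 755 kept their direction and their side of the threshold, 18 went past it, 2 lost it and 26 changed sign, the last at most 0.2 in size with adjusted *p* values of 0.374 or more. Without the fold limit, the numbers of the 9 genes that passed were 5, 5, 8 and 6 in place of 1, 2, 3 and 2 for *Hmgn1*-/-, *Hmgn2*-/- and double knockout against WT and double knockout against *Hmgn1*-/- mESCs, and 3 in place of 1 for additivity. Over the other alternatives taken without that limit, a combination chosen after seeing the data, 2 to 3, 2 to 3 and 4 to 6 genes rose and 2 to 3, 0 to 3 and 1 to 3 fell against WT mESCs, 5 to 7 and 0 to 5 rose in the double knockout against *Hmgn1*-/- and *Hmgn2*-/- mESCs, and 2 to 3 passed for additivity. For the double knockout against *Hmgn2*-/- mESCs, 0 passed, and 2 did with DESeq2, without the filter, with all 12 libraries in a single fit, with replicate 3 of every genotype left out and with the replicate block. Whether replicate numbers pair the samples is not given in the sources used here. Correlations of same-numbered deviations were all positive, at 0.0169 to 0.301, but not above 0.1 throughout any comparison, and the main fits held no block. Those of differently numbered libraries ran from -0.266 to 0.0623. An effect shared by same-numbered libraries was not tested. The replicate block changed no other of these counts by more than 1.5 times.

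With 1 library left out, the counts were 1 to 2 and 1 to 3 for the single knockouts, 3 to 3 for the double knockout, 2 to 2 and 0 to 2 for the double against *Hmgn1*-/- and *Hmgn2*-/- mESCs, 0 to 0 between single knockouts and 1 to 1 for additivity. Shares of all genes are given in the results for the main fits, and not for fits with libraries left out. *Col4a1* in *Hmgn2*-/- mESCs lost its call without WT replicate 1 (0.985, adjusted *p* = 0.00443) or *Hmgn2*-/- replicate 1 (0.979, adjusted *p* = 0.000785). Signs changed over these ranges of log2 FC. In *Hmgn2*-/- against WT mESCs they were -0.011 to 0.286 for *Lamc1*, -0.051 to 0.34 for *Hspg2* and -0.12 to 0.039 for *Lamb1*. In *Hmgn2*-/- against *Hmgn1*-/- mESCs they were -0.12 to 0.141 for *Lama1*, -0.25 to 0.137 for *Hspg2*, -0.02 to 0.135 for *Lamb1*, -0.148 to 0.145 for *Lamc1* and -0.196 to 0.06 for *Nid1*. In the double knockout they were -0.062 to 0.04 for *Nid1* against *Hmgn1*-/- mESCs, and -0.062 to 0.19 for *Nid1* and -0.083 to 0.116 for *Nid2* against *Hmgn2*-/- mESCs. For additivity *Hspg2* ran from -0.124 to 0.263.

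With replicate 3 of every genotype left out, sign changes were 0.047 for *Lamb1* (*Hmgn2*-/- against WT), 0.11 for *Lama1*, 0.105 for *Lamc1*, 0.055 for *Nid1* and 0.037 for *Hspg2* (*Hmgn2*-/- against *Hmgn1*-/-), 0.015 for *Nid1* (double against *Hmgn1*-/-), -0.041 for *Nid1* and -0.081 for *Nid2* (double against *Hmgn2*-/-) and -0.202 for *Hspg2* (additivity). The cause of these changes was not tested. Each of the 9 genes had at least 799 counts in every library, and the effect of depth was not tested.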
